A study of Mus musculus with 20 samples.

Results

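Colonic differentiated cells of GF mice (taken to mean germ-free, that is, raised without a microbiota) were compared between 15 and 3 weeks of age over all 1195 regions of a deposited table of whole-genome bisulfite sequencing. The samples were chosen by their labels alone: 4 GF differentiated samples at 15 weeks and 2 at 3 weeks, which is 6 of the 20 samples of the series. All 20 came from C57BL/6J mice with the Lgr5EGFP-IRES-CreERT2 genotype, an allele that puts green fluorescent protein and an inducible Cre under the stem cell gene Lgr5. For comparison, SPF mice (taken to mean specific-pathogen-free mice that carry a microbiota) gave 2 differentiated samples at 15 weeks and 2 at 3 weeks, and the same kinds of GF mice gave 4 stem cell samples at 15 weeks and 2 at 3 weeks. Each group held male and female samples in equal number, so samples of different sex came from different mice. The labels do not say whether a sample pools mice, and p-values measure only the spread between samples. For single regions, standard errors (SE) and p-values pool the spread within groups over all 20 samples, not only the 6 compared. At 15 weeks the GF differentiated samples carried identifiers of 2 styles, Co for replicates 1 and 2 and GFp for replicates 3 and 4, and both 3-week samples were of the GFp style; what the styles stand for is not stated.

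In mammals a methyl group is placed on cytosines that precede a guanine (CpG sites), and maintenance enzymes copy the pattern at each cell division, so a lineage can keep it. Active enhancers and promoters usually carry little CpG methylation, and methylation there tends to be lost when a regulatory element is in use and gained when it is silenced. In the intestine, weaning is the period in which a milk diet gives way to solid food and the microbiota diversifies, and the epithelium switches from a suckling to an adult gene programme. Each value below is a fraction between 0 and 1, the part of a region's CpG cytosines read as methylated. No read counts came with the fractions, so the depth behind each is unknown and no interval is given for a single one.

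The regions were not a neutral sample of the genome. In the authors' deposited table all 1195 regions carry a negative methylation difference whose groups are not named. That difference lay closest to SPF minus GF at 15 weeks over both cell types, with a mean gap of 0.0432, against 0.202 for the change with age in GF differentiated cells. As far as this match shows, regions were listed for lower methylation in SPF than in GF cells at 15 weeks, so samples of both kinds at that age took part in the choice, and every share below describes listed regions only. Gene names are those that the table gives to a region, for a gene body around it or a transcription start near it. Of the 1195 regions 46 had a near start. The cCRE classes are the table's labels for candidate regulatory elements. Whether a region lies in an exon or an intron was not resolved. Of all regions 755 carried a gene name and 440, called regions without a gene below, did not. The Lgr5 gene and the lists of immune, enteroendocrine and tuft cell markers had no region in the table, and only 5 regions of stem cell markers and 2 of colonocyte genes were listed. Their methylation does not show which cells were present, so the labelled cell type was not checked.

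A region that changed with age overlapped the Mir194-1 hairpin, and a run of regions that fell lay 24367 bp before Mirlet7c-2. The mature sequences of the microRNAs at these places are shown to identify the genes. These places were looked up after the values were seen, and the share of all regions near a microRNA was not counted. A mature microRNA pairs with target mRNAs mainly through its seed, bases 2 to 8, printed in capitals (sequences from RefSeq, GRCm38.p6, which is the mm10 build).
mmu-let-7c-5p: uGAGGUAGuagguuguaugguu
mmu-let-7b-5p: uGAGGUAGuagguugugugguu
mmu-miR-194-5p: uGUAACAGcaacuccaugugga
mmu-miR-215-5p: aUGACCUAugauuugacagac
The let-7b and let-7c microRNAs share 1 seed. The let-7 family is known for restraining growth and fetal gene programmes, and miR-194 and miR-215 are known as microRNAs of the intestinal epithelium, encoded side by side.

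Promoters that lay whole inside a region with a called change are shown for their CpG content, with each CG in capitals. Each window runs from 250 bases before to 50 bases after a RefSeq transcription start. Among 13 regions that held a whole window these 3 were the called ones, where 24.7% of all regions were called, and they were picked out after their values were seen.
Gm30139 promoter, chr17:31294812-31295111, minus strand: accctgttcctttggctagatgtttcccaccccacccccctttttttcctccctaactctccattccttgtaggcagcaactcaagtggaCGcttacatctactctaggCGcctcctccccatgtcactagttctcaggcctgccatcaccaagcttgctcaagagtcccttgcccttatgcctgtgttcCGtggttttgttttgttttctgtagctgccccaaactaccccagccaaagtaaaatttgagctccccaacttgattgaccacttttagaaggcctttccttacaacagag
Tmem252 promoter, chr19:24673758-24674057, plus strand: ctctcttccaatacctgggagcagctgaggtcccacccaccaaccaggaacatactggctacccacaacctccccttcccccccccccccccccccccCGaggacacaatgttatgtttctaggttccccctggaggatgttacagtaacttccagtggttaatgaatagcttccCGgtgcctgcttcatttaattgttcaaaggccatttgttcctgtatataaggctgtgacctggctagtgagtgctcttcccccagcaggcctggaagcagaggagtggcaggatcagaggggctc
Gm29944 promoter, chr10:125938565-125938864, minus strand: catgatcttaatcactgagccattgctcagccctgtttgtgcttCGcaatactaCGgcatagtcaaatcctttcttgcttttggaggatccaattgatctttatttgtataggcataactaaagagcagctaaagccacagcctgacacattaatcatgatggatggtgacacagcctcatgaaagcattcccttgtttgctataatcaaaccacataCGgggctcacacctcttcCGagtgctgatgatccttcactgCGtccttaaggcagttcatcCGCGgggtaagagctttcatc
The Gm30139 window held 3 CGs, the Tmem252 window 2 and the Gm29944 window 7. The median over 32851 RefSeq promoter windows was 7 CGs, and 76.7%, 85.9% and 52.1% of windows held at least as many CGs as these 3, in that order.

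Over the whole table GF differentiated cells had lower methylation at 15 weeks in more regions than they had higher methylation. With limma and Benjamini-Hochberg adjustment over all regions, 215 regions (18.0%) fell and 80 (6.69%) rose at an adjusted p under 0.05, so that 24.7% were called in either direction. The remaining 900 regions did not pass. The change ran from a fall of 0.564, at a region without a gene on chromosome 15, to a rise of 0.433, with a median of -0.038. In 208 of the 215 falls and in all 80 rises no 15-week sample overlapped the 3-week samples, against 31.2% of all regions with every 15-week sample below and 12.7% with every 15-week sample above.

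**Figure D1:**
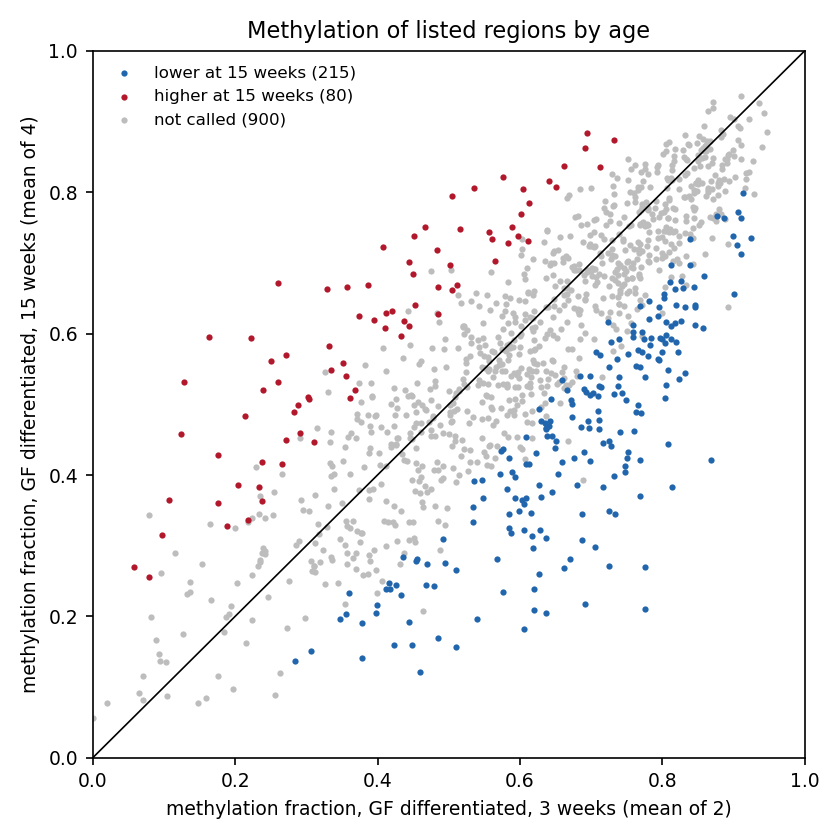
Methylation fraction of each of the 1195 regions in GF differentiated cells, with the mean of 4 samples at 15 weeks on the vertical axis and the mean of 2 samples at 3 weeks on the horizontal axis. Blue points are the 215 regions called lower at 15 weeks, red points the 80 called higher and grey points the 900 not called; the line marks equal levels.

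Averaged over all regions, the 4 samples at 15 weeks had mean fractions of 0.569, 0.571, 0.567 and 0.560, against 0.610 and 0.605 in the samples at 3 weeks. All 15-week samples lay below both 3-week samples. The groups averaged 0.567 ± 0.00456 at 15 weeks (SD, n = 4) and 0.608 ± 0.00396 at 3 weeks (SD, n = 2). The difference of -0.0409 had a two-sided exact permutation p of 0.133, the smallest that 4 against 2 samples allow. When each sample was centred on its own median, a shift of -0.0581 between the ages was taken out and the split of calls turned round, to 114 lower and 158 higher, so that falls made up 41.9% of the calls in place of 72.9%. All 114 of those falls, and all 80 of the rises called without centring, were called in the same direction both ways.

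The 2 sets had different levels at 3 weeks. In the 215 regions that fell, the median level was 0.465 at 15 weeks and 0.705 at 3 weeks. In the 80 that rose it was 0.622 at 15 weeks and 0.391 at 3 weeks. These levels follow in part from the choice of regions by their change, so the level in SPF differentiated cells at 3 weeks, which took no part in the contrast, was used to sort all regions. Of the 79 regions below 0.25 in those cells, 6.33% fell and 30.4% rose in GF differentiated cells. Of the 294 regions between 0.25 and 0.5, 10.2% fell and 11.2% rose. Of the 560 regions between 0.5 and 0.75, 23% fell and 3.75% rose, and of the 262 above 0.75, 19.5% fell and 0.763% rose. Low levels leave little room to fall and high levels little room to rise. The listing by SPF below GF cells at 15 weeks also bears on these shares, so they do not isolate the starting level.

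Distal enhancer-like elements held 77 of the falls and 37 of the rises among 421 such regions, or 18.3% and 8.79%. Proximal enhancer-like elements held 24 falls and 5 rises among 116 regions, promoter-like elements 5 and 2 among 24, and regions outside any class 107 and 34 among 607. These shares are close to those of the whole table, and no difference between classes was tested. Nor was a difference tested between regions with and without a gene, at 18.4% lower and 7.02% higher among 755 regions with a gene and 17.3% and 6.14% among 440 without.

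A run of 5 distal enhancer-like regions on chromosome 15, chosen for description after its values were seen, held the largest fall. None of these regions carried a gene. They span chr15:85664347-85682236, and their near edge lies 24367 bp before Mirlet7c-2 and 25083 bp before Mirlet7b; the nearest protein-coding genes are Ppara, a nuclear receptor of fatty acid oxidation at 52674 bp, and Wnt7b, a Wnt ligand at 82526 bp. All 5 regions fell, by 0.389 to 0.564. Outside the run, a region without a gene at chr1:151328416-151328702 also fell (difference -0.506). The largest fall of the whole table was at chr15:85665630-85666114 (13 CpGs), where the 15-week samples had 0.160, 0.265, 0.203 and 0.217, against 0.730 and 0.820 in the 3-week samples (difference -0.564, SE 0.0625, adjusted p = 5.1e-06). The region at chr15:85678491-85678827 had 0.227, 0.256, 0.358 and 0.244 at 15 weeks, against 0.720 and 0.731 at 3 weeks (difference -0.454, SE 0.0446, adjusted p = 3.5e-06). In none of the 5 did the ages overlap, and none lost its call when any one library was left out (highest adjusted p = 0.0038).

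**Figure D2:**
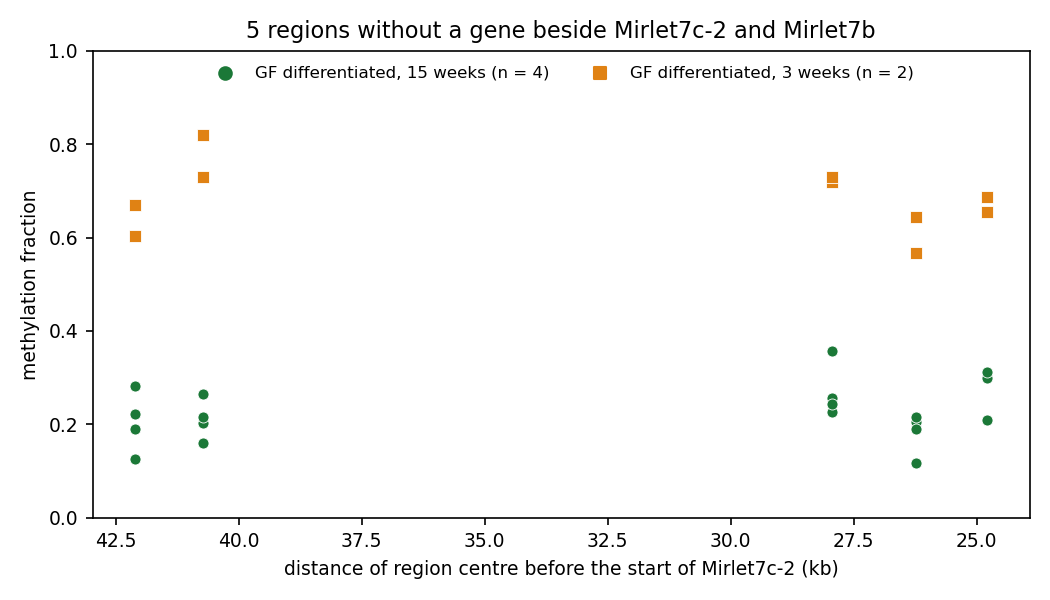
Methylation fraction of 5 regions in GF differentiated cells by the distance of their centre before the start of Mirlet7c-2, in kb, one point per sample. The 4 samples at 15 weeks (circles) lie between 0.117 and 0.358 and the 2 samples at 3 weeks (squares) between 0.568 and 0.820.

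The same 5 regions fell in SPF differentiated cells, to 0.0521 to 0.170 at 15 weeks, against 0.605 to 0.773 at 3 weeks. In GF stem cells they also fell, by 0.253 to 0.346, and stood at 0.30 to 0.556 at 15 weeks, against 0.645 to 0.809 at 3 weeks. The change at chr15:85678491-85678827 differed between GF and SPF cells (GF minus SPF 0.219, SE 0.0681, adjusted p = 0.014), while the other 4 interactions were not called (adjusted p = 0.12 to 0.37). That interaction was lost without the SPF 15-week replicate 2 (adjusted p = 0.054) and became 0.00459 when samples were centred.

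A second microRNA locus lay inside a region. The region chr1:185312643-185313354 (15 CpGs), in the body of Iars2, the mitochondrial isoleucyl-tRNA synthetase gene, covers the start of the Mir194-1 hairpin, which is at chr1:185313319-185313385, including the whole mature miR-194-5p at chr1:185313325-185313346. It had 0.364, 0.351, 0.260 and 0.315 at 15 weeks, against 0.586 and 0.626 at 3 weeks (difference -0.283, SE 0.0436, adjusted p = 1e-04). The mature miR-215-5p begins at 185313610, outside the region. The other region that overlaps a microRNA hairpin, at Mir147 in AA467197, averaged 0.443 at 15 weeks and 0.427 at 3 weeks and was not called (adjusted p = 0.84). Both were looked up after the values were seen.

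Among regions with a gene, the 12 named falls had no common theme that was tested, and 3 of them are given sample by sample. Cnn3, which encodes the actin-binding protein calponin 3, had 0.247, 0.212, 0.135 and 0.278 at 15 weeks, against 0.729 and 0.655 at 3 weeks (chr3:121428611-121429233, difference -0.474, SE 0.0486, adjusted p = 3.5e-06). Tmsb10, which encodes an actin-monomer-binding thymosin, had 0.166, 0.0644, 0.343 and 0.264 at 15 weeks, against 0.518 and 0.722 at 3 weeks (chr6:72957416-72957523, difference -0.410, SE 0.0692, adjusted p = 0.00024). The Tmsb10 samples were more spread at both ages (SD 0.121 and 0.144). That the ages did not overlap was a condition for naming each of the 12 falls. Kcne3, the channel subunit that pairs with Kcnq1 in secretory colonic epithelium, had 0.388, 0.425, 0.478 and 0.483 at 15 weeks, against 0.740 and 0.876 at 3 weeks (chr7:100184383-100184893, difference -0.364, SE 0.0452, adjusted p = 1.3e-05).

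The other named falls were of similar size. Spata2, an adaptor of the deubiquitinase Cyld, averaged 0.422 at 15 weeks and 0.868 at 3 weeks, with its 15-week samples spread from 0.20 to 0.544. Sash1, a signalling scaffold, averaged 0.268 at 15 weeks and 0.662 at 3 weeks. Pmm1, a phosphomannomutase, averaged 0.345 at 15 weeks and 0.733 at 3 weeks. Foxk1, a forkhead transcription factor, averaged 0.308 at 15 weeks and 0.687 at 3 weeks. Primpol, which restarts stalled DNA replication, averaged 0.156 at 15 weeks and 0.510 at 3 weeks. Cacng2, Dcun1d4, Ncald and Ceacam10 fell by 0.348 to 0.380. The Ceacam10 region, at a member of the carcinoembryonic antigen family, lies 331 bp from that gene's start by the table. None of the 12 named falls lost its call when any one library was left out (highest adjusted p = 0.021).

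The 2 promoters shown above that lost methylation differ in how firm the loss was. The region around the Gm30139 start, in the body of Slc37a1, a sugar-phosphate transporter gene, had 0.411, 0.411, 0.348 and 0.365 at 15 weeks, against 0.738 and 0.695 at 3 weeks (chr17:31294547-31295278, difference -0.333, SE 0.0501, adjusted p = 8.1e-05). The Tmem252 region had 0.251, 0.241, 0.232 and 0.208 at 15 weeks, against 0.385 and 0.335 at 3 weeks (chr19:24673314-24674197, difference -0.127, SE 0.0421, adjusted p = 0.032). The Tmem252 call was lost without the 15-week replicate 3 (adjusted p = 0.050) or 4 (0.062) and without the 3-week replicate 1 (0.23) or 2 (0.064), and when samples were centred (0.25). The remaining promoter, Gm29944, gained methylation, with 0.424, 0.505, 0.566 and 0.340 at 15 weeks, against 0.279 and 0.303 at 3 weeks (chr10:125938228-125938928, difference 0.168, SE 0.0521, adjusted p = 0.022). The Gm29944 call was lost without the 15-week replicate 2 (adjusted p = 0.054) or 3 (0.063), or the 3-week replicate 1 (0.14) or 2 (0.079).

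Among called regions with a gene and no overlap between ages, gains of methylation were led by Fat1, an atypical cadherin. Its region had 0.636, 0.707, 0.699 and 0.646 at 15 weeks, against 0.315 and 0.205 at 3 weeks (chr8:44957237-44957408, 10 CpGs, difference 0.412, SE 0.0551, adjusted p = 2.8e-05). Mboat2, a lysophospholipid acyltransferase, had 0.611, 0.588, 0.730 and 0.445 at 15 weeks, against 0.275 and 0.169 at 3 weeks (chr12:24891070-24891563, difference 0.371, SE 0.0646, adjusted p = 0.00033). Map7, a microtubule-associated protein, had 0.532, 0.456, 0.480 and 0.365 at 15 weeks, against 0.0796 and 0.169 at 3 weeks (chr10:20205485-20205806, difference 0.334, SE 0.0534, adjusted p = 0.00015). That samples of the 2 ages did not overlap in these 3 was a condition for naming them.

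Pmepa1, an inhibitor of Smad signalling that TGF-beta induces, averaged 0.723 at 15 weeks and 0.408 at 3 weeks. Tanc1, a synaptic scaffold gene, averaged 0.663 at 15 weeks, its replicate 3 standing at 0.819, and 0.329 at 3 weeks. Cacna1a, a voltage-gated calcium channel, averaged 0.562 at 15 weeks and 0.251 at 3 weeks. Tiam2, which activates the small GTPase Rac, averaged 0.794 at 15 weeks and 0.504 at 3 weeks. Nqo1, a quinone reductase of the oxidative stress response, averaged 0.520 at 15 weeks and 0.239 at 3 weeks. Sh3rf1, Eepd1, Ptpn13 and Slc39a11 rose by 0.283 to 0.308. None of the 12 named rises lost its call when any one library was left out (highest adjusted p = 0.032).

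**Figure D3:**
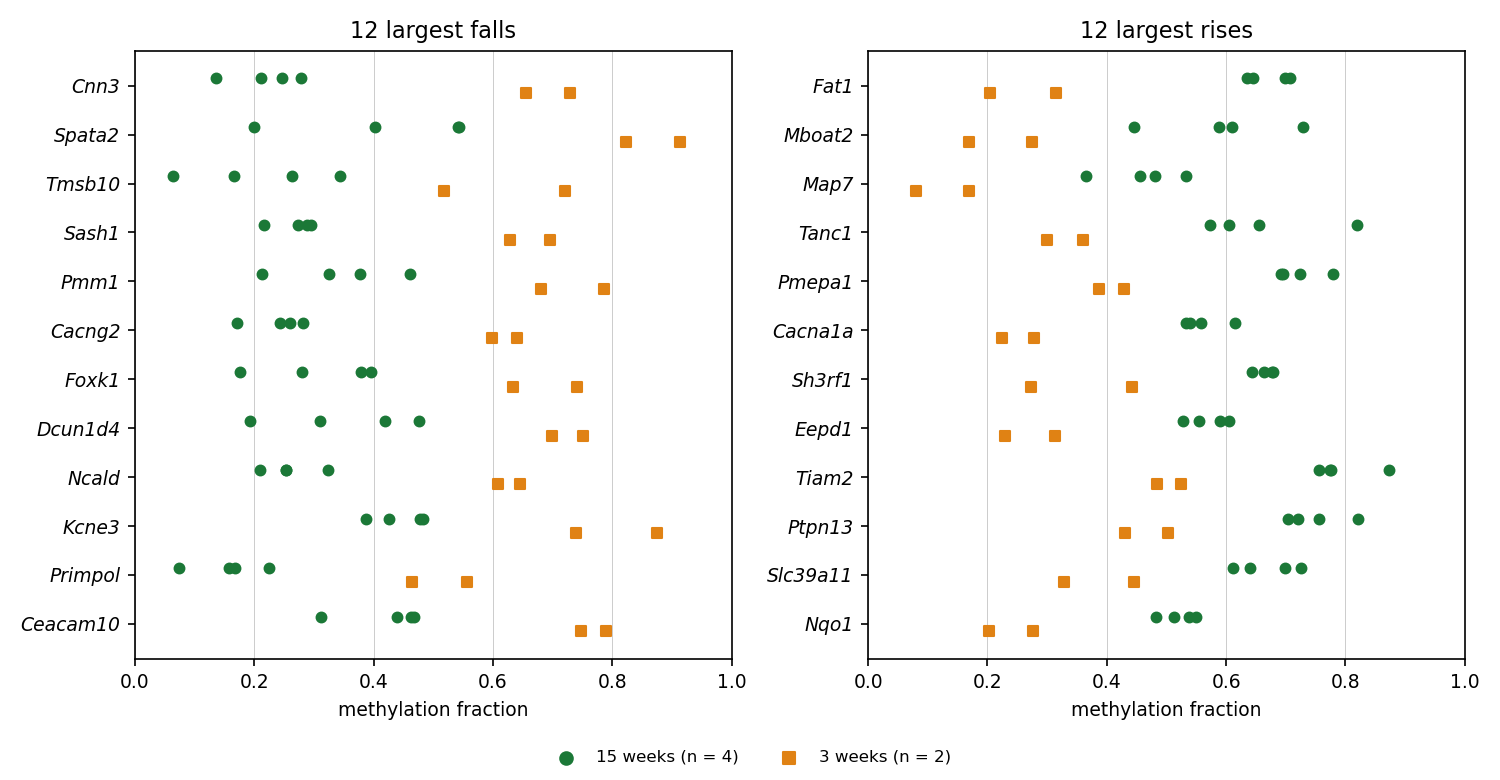
Methylation fraction in each GF differentiated sample for the 12 largest falls (left) and 12 largest rises (right) among regions with a gene, called at an adjusted p under 0.05 and without overlap between ages. Circles are the 4 samples at 15 weeks and squares the 2 samples at 3 weeks; the choice of genes fixes that the ages stand apart.

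Most genes had a single region, and of the genes with several the calls were usually few. Frmd4b, which encodes a FERM-domain protein of epithelial cell junctions, was the exception: 4 of its 5 regions fell, all within chr6:97485383-97520174, by 0.169 to 0.259, and the other changed by -0.00168. The region at chr6:97485383-97486599 had 0.630, 0.526, 0.547 and 0.493 at 15 weeks, against 0.776 and 0.839 at 3 weeks (difference -0.259, SE 0.0605, adjusted p = 0.004). Each of the 4 calls was lost without 1 of the 3-week samples, 2 of them without the 3-week replicate 1 (adjusted p = 0.15 and 0.078) and the other 2 without replicate 2 (0.054 and 0.19). Of the 11 regions of Gm20388 1 rose, of the 8 of Aopep 1 fell, of the 4 of Pla2g5 1 fell, of the 4 of Ptprj 1 rose, and of the 5 of Eps8 none was called. The Ptprj rise of 0.199 was lost without the 3-week replicate 1 (adjusted p = 0.13).

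Called regions were mostly scattered. With a gap of 50 kb as the limit, 252 of the 295 stood alone, 14 runs held 2 and 4 runs held 3 or more, namely those beside Mirlet7c-2, in Frmd4b, at Tiam1 and on chromosome 6 near Mir29b-1. At Tiam1, which activates Rac as Tiam2 does, 2 regions in the gene rose by 0.148 and 0.175 and another, 35246 bp outside it, fell by 0.306. Both rises were lost without the 3-week replicate 1 (adjusted p = 0.10 for each) and the first also without replicate 2 (0.062). The run on chromosome 6, 59505 bp from Mir29b-1, also moved both ways, with falls of 0.243 and 0.115 and a rise of 0.184. The smaller fall and the rise were lost without the 15-week replicate 3 (adjusted p = 0.065 and 0.11), the 3-week replicate 1 (0.12 and 0.052) or replicate 2 (0.13 and 0.35), and the smaller fall also when samples were centred (0.28).

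The gene lists give few regions each, and their medians are set against -0.038 for all regions. Their counts of calls stand beside 18.0% lower and 6.69% higher over all regions, and no list was tested against these shares. On the list of DNA methylation machinery 2 genes had a region and both fell. Cdca7, which activates the chromatin remodeller Hells in methylation maintenance and marks stem and progenitor cells, had 0.193, 0.169, 0.204 and 0.221 at 15 weeks, against 0.544 and 0.534 at 3 weeks (chr2:72478273-72479178, 18 CpGs, difference -0.343, SE 0.036, adjusted p = 3.5e-06). Idh1, which makes the cofactor of the Tet demethylases, averaged 0.413 at 15 weeks and 0.747 at 3 weeks (difference -0.334, adjusted p = 0.00033). Of 5 stem cell marker regions 1 fell, that of Cdca7, while Axin2, Prom1 and both Cd44 regions were not called. Lrp5, a Wnt co-receptor, was the called region of 4 on the Wnt list and fell by 0.160. The 1 Notch region, at the ligand Jag1, averaged 0.563 at 15 weeks and 0.584 at 3 weeks and was not called, and Smad1, a BMP signal transducer and the 1 region of its list, fell by 0.290.

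The suckling-to-weaning list had 3 regions in 2 genes, all called, where 24.7% of all regions were called. So short a list was not tested against that share. Slc5a1, the apical sodium-glucose cotransporter, fell in both of its regions. The promoter-like one had 0.0927, 0.146, 0.0796 and 0.165 at 15 weeks, against 0.474 and 0.444 at 3 weeks (chr5:33141865-33142145, difference -0.339, SE 0.0477, adjusted p = 4.4e-05), and the other fell by 0.269. Prdm1, which encodes Blimp1, a repressor that holds back the adult enterocyte programme in the suckling mouse intestine, gained methylation, with 0.864, 0.810, 0.818 and 0.793 at 15 weeks, against 0.567 and 0.587 at 3 weeks (chr10:44449579-44450195, difference 0.244, SE 0.042, adjusted p = 3e-04). None of these 3 calls was lost when a library was left out (highest adjusted p = 0.026).

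Of 4 goblet cell regions 2 fell, where 18.0% of all regions fell. They were at the membrane mucins Muc1 (difference -0.257) and Muc13 (-0.234), and the list's median was -0.131. Both rest on 1 library: Muc1 had 0.507, 0.417, 0.389 and 0.419 at 15 weeks, against 0.527 and 0.853 at 3 weeks, and was lost without the 3-week replicate 2 (adjusted p = 0.28), and Muc13 was lost without the 3-week replicate 1 (0.15). Among 4 glycosylation enzyme regions, Galnt10, which starts O-linked sugar chains on mucins, rose by 0.269, to 0.484 at 15 weeks, against 0.215 at 3 weeks (adjusted p = 0.00033). The 2 colonocyte regions, including Ceacam1 (0.419 at 15 weeks and 0.539 at 3 weeks, adjusted p = 0.081), were not called. The barrier list had 6 falls among 10 regions, where 18.0% of all regions fell, and a median of -0.156. However, 4 of the 6 are the Frmd4b regions, and another is Patj, a scaffold of tight junctions, which fell by 0.198. Neither region of the stromal, endothelial and neural list was called, Pecam1 averaging 0.692 at 15 weeks and 0.737 at 3 weeks.

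The immune lists are set against the 24.7% called, 18.0% lower and 6.69% higher, over all regions, and no list was tested against them. Of 16 antigen presentation and effector regions 2 fell and 1 rose (median -0.0202), and of 15 interferon response regions 1 fell (median -0.0506). Dhx58, a cytosolic RNA sensor of the RIG-I family, had 0.376, 0.333, 0.236 and 0.310 at 15 weeks, against 0.644 and 0.590 at 3 weeks (chr11:100703245-100703937, difference -0.303, SE 0.0539, adjusted p = 0.00039). Pigr, the receptor that carries IgA across the epithelium, fell by 0.162, and B2m, the light chain of MHC class I, by 0.138, while H2-Ab1, an MHC class II chain, rose by 0.224. On the NF-kB list 2 of 6 regions fell, in Bcl3 and Nfkb1, by 0.193 and 0.182. All 5 of Pigr, B2m, H2-Ab1, Bcl3 and Nfkb1 were lost without the 3-week replicate 2 (adjusted p = 0.052, 0.28, 0.057, 0.13 and 0.25). H2-Ab1 was also lost without the 3-week replicate 1 (0.065), and B2m also without the 15-week replicate 3 (0.058) or 4 (0.051).

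Lists of metabolism, growth and transcription held calls in both directions, as the whole table did, at shares near its 24.7%. Of 15 lipid and nuclear receptor regions 2 fell, at Pla2g5 and Elovl5 (-0.196 and -0.173), and 2 rose, both at Esrrg, an orphan nuclear receptor of mitochondrial metabolism (0.257 and 0.213). Of 15 growth factor regions 3 fell, at Fgfr2 with Htra1, Igf1r and Igf2bp2 (-0.288, -0.223 and -0.142), and 1 rose, at Met, the receptor for hepatocyte growth factor (0.163). Of 10 transcription factor regions Ets2 fell by 0.130, and Klf6 and Tead1 rose by 0.184 and 0.196. The fetal and Hippo list of 5 regions repeats Igf2bp2 and Tead1. Of these 11 calls, those at Fgfr2 with Htra1 and at Tead1, the DNA-binding partner of Yap, were called without any one library (highest adjusted p = 0.023 and 0.044).

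The other 9, and the Lrp5 call, each depended on at least 1 library. Without the 3-week replicate 1, calls were lost at Elovl5 (adjusted p = 0.30), both Esrrg regions (0.097 and 0.065), Igf1r (0.056), Met (0.062), Ets2 (0.089) and Klf6 (0.056). Without the 3-week replicate 2, they were lost at Pla2g5 (0.14), Lrp5 (0.26), Igf2bp2 (0.27), Met (0.068), Ets2 (0.075) and Klf6 (0.26). Of the 15-week samples, replicate 2 decided Igf2bp2 (0.051), replicate 3 Lrp5 (0.073) and Klf6 (0.087), and replicate 4 Igf2bp2 (0.068) and Klf6 (0.072). Centring the samples ended 13 of the 80 calls named in all (adjusted p = 0.061 to 0.28), among them Pla2g5, Elovl5, Lrp5, Igf2bp2, Ets2, Pigr, B2m, Bcl3, Nfkb1 and 2 of the Frmd4b regions.

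Loss of methylation in GF differentiated cells was also seen with a microbiota. In SPF differentiated cells 863 regions (72.2%) fell and 11 (0.921%) rose between the same ages. The SPF samples at 15 weeks took part in the choice of regions as the lower side, so their fall, and its size beside the GF change, is partly set by that choice. Of the 215 regions that fell in GF cells, 210 (97.7%) also fell in SPF cells and 5 were not called there. The shared falls are 24.3% of the 863, and 640 regions (74.2%) that fell in SPF cells were not called in GF cells. The median change over the 215 regions was -0.204 in GF cells and -0.381 in SPF cells; the first of these values was used to choose the regions.

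Gains in GF cells were matched in SPF cells in a minority of regions. As far as the deposited difference shows, regions were listed for SPF below GF cells at 15 weeks. That choice favours GF rises that SPF cells lack, so the counts here are partly set by it. Of the 80 regions that rose in GF cells, 11 rose in SPF cells, which are all 11 of the SPF rises, 13 fell and 56 were not called, and the median change over them was 0.196 in GF cells, which chose them, and 0.00508 in SPF cells. In SPF differentiated cells these regions averaged 0.370 and 0.369 in the 2 samples at 15 weeks, against 0.369 and 0.377 at 3 weeks. In GF differentiated cells, whose values chose the regions, they averaged 0.601, 0.599, 0.643 and 0.584 at 15 weeks, against 0.393 and 0.392 at 3 weeks.

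**Figure D4:**
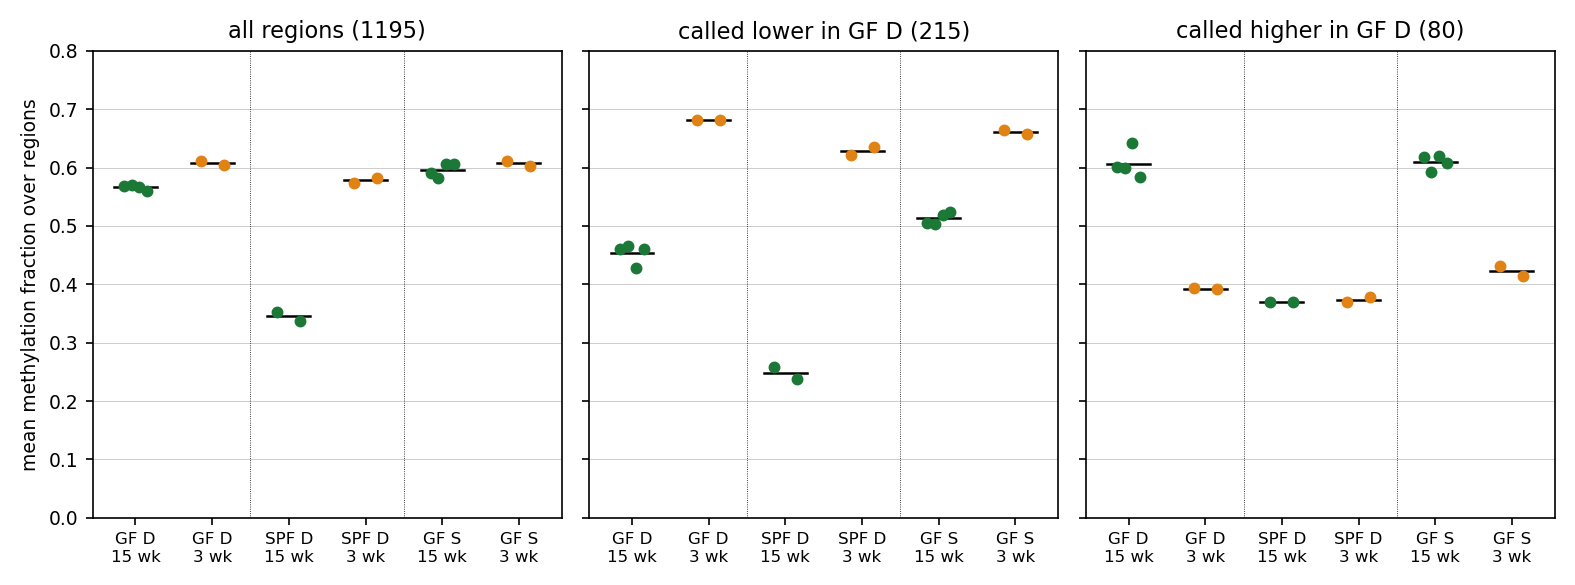
Mean methylation fraction over all 1195 regions (left), over the 215 called lower (middle) and over the 80 called higher in GF differentiated cells (right), one point per sample and a bar at the group mean. D is differentiated and S is stem; the GF D samples in the middle and right panels chose those regions, and the SPF D samples of the right panel lie between 0.369 and 0.377 at both ages.

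The difference between the changes was tested as an interaction. GF change minus SPF change was higher in 567 regions (47.4%) and lower in 1 (0.0837%), and 627 regions were not called. The listing of regions by SPF below GF cells at 15 weeks uses a term of this interaction, so its direction is not independent of the choice. Among the 215 regions that fell in GF cells the interaction was higher in 81 and lower in 1, and among the 80 that rose it was higher in 48. The GF change that chose these sets is also a term of the interaction, so these counts are partly set by that choice. When each sample was centred on its median, 23 regions were higher and 10 lower.

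The largest difference of the table was at Ciita. This gene, which switches on MHC class II genes, had 0.780, 0.800, 0.757 and 0.785 in GF differentiated cells at 15 weeks, against 0.751 and 0.710 at 3 weeks, and was not called (chr16:10490450-10491033, difference 0.0498, adjusted p = 0.34). In SPF differentiated cells it averaged 0.104 at 15 weeks and 0.768 at 3 weeks, and the interaction was 0.714 (SE 0.0541, adjusted p = 4.2e-08). H2-Aa, an MHC class II chain, averaged 0.739 at 15 weeks and 0.714 at 3 weeks in GF cells and 0.164 and 0.721 in SPF cells at the same ages (interaction 0.583, adjusted p = 1.3e-05). Irf1, an interferon-induced transcription factor, averaged 0.763 at 15 weeks and 0.872 at 3 weeks in its first region in GF cells, just outside the threshold (adjusted p = 0.050), and 0.193 at 15 weeks and 0.829 at 3 weeks in SPF cells (interaction 0.528, adjusted p = 6.2e-06). These 3 interactions were called under every alternative that kept their region, centring included; the Irf1 and Ciita regions were also among those with at least 15 CpGs. These 3 genes were named after their values were seen.

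In 13 regions GF cells gained and SPF cells lost methylation past the threshold, 7 of them with a gene. The listing of regions by SPF below GF cells at 15 weeks favours this pair of directions. At Prdm1 SPF cells averaged 0.358 at 15 weeks and 0.484 at 3 weeks, and the interaction was 0.370 (SE 0.0641, adjusted p = 0.00027). The other 5 named were Vmp1, a protein of autophagosome formation, Atf7ip, which stabilises the H3K9 methyltransferase Setdb1, Tead1, Lpar1, a lysophosphatidic acid receptor, and Nfatc2, a calcium-regulated transcription factor. Vmp1 averaged 0.744 at 15 weeks and 0.556 at 3 weeks in GF cells, against 0.399 at 15 weeks and 0.565 at 3 weeks in SPF cells. Atf7ip averaged 0.702 at 15 weeks and 0.565 at 3 weeks in GF cells, against 0.326 at 15 weeks and 0.533 at 3 weeks in SPF cells. These 6 genes were picked for opposite calls in GF and SPF cells and then by the size of the interaction. That their interactions were called was therefore largely set by the choice. The interactions ran from 0.298 to 0.370. They were called without any one library, though not when samples were centred (adjusted p = 0.20 to 0.54). The GF rises themselves were lost without the 3-week replicate 1 at Vmp1 (adjusted p = 0.10) and Lpar1 (0.053), without the 3-week replicate 2 at Atf7ip (0.36) and Nfatc2 (0.13), and at Atf7ip also without the 15-week replicate 2 (0.081) or 3 (0.065).

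**Figure D5:**
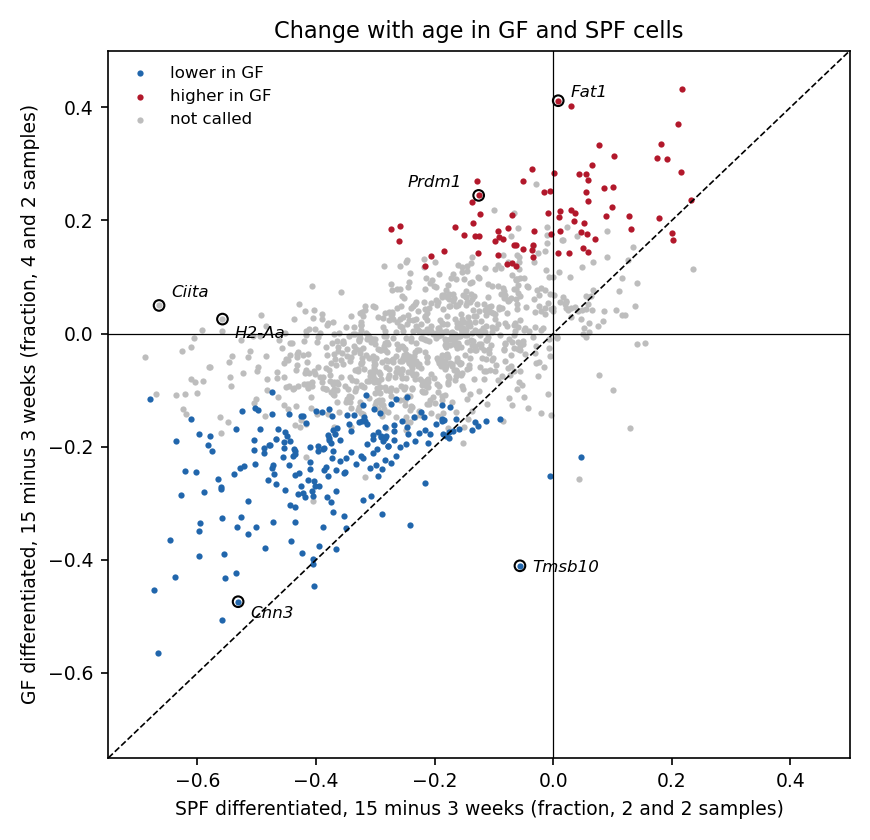
Difference in methylation fraction between 15 and 3 weeks for each region, in GF differentiated cells on the vertical axis and in SPF differentiated cells on the horizontal axis, coloured by the call in GF cells. The dashed line marks equal changes; Tmsb10 (-0.410 in GF cells and -0.0561 in SPF cells) lies below it, and Ciita (0.0498 and -0.665) and Fat1 (0.412 and 0.00844) above.

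Tmsb10 was the 1 region with an interaction in the other direction. In SPF differentiated cells it averaged 0.0555 at 15 weeks and 0.112 at 3 weeks, so that GF cells started high and ended at 0.209 (interaction -0.354, SE 0.106, adjusted p = 0.011). The interaction was lost without the GF 3-week replicate 2 (adjusted p = 0.080) or the SPF 3-week replicate 2 (0.063), and on the logit scale (0.12).

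The change with age was also compared with that of GF stem cells. In GF stem cells 161 regions (13.5%) fell and 103 (8.62%) rose, 22.1% in either direction. The median change in stem cells was -0.148 over the 215 regions that fell in differentiated cells, of which 199 had the same sign, and 0.186 over the 80 that rose, of which 79 had the same sign. These regions were chosen by their change; over all 1195 regions 868 had the same sign, and over the 900 not called 590. Some stem and differentiated samples share an identifier and may come from the same mice. Differentiated change minus stem change was lower in 2 regions (0.167%) and higher in none; at an unadjusted p under 0.05 the counts were 89 and 21. The lack of calls does not show that the changes were equal.

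The 2 regions were at Tmsb10 and at the start of Gadd45gip1, which overlaps Dand5. Tmsb10 averaged 0.251 at 15 weeks and 0.170 at 3 weeks in GF stem cells (interaction -0.491, adjusted p = 0.042). Gadd45gip1, a mitochondrial ribosome protein gene, had 0.506, 0.302, 0.469 and 0.420 in differentiated cells at 15 weeks, against 0.681 and 0.670 at 3 weeks (chr8:84831602-84831823, difference -0.251, adjusted p = 0.0087). In GF stem cells that region averaged 0.639 at 15 weeks and 0.416 at 3 weeks (interaction -0.474, adjusted p = 0.042). The differentiated fall at Gadd45gip1 was lost without the 3-week replicate 1 (adjusted p = 0.065) or 2 (0.051). Both interactions were fragile: leaving out each of the 12 GF libraries in turn, Tmsb10 was called without differentiated 15-week replicate 3, differentiated 3-week replicate 1 or stem 15-week replicate 1 but without none of the other 9 (adjusted p up to 0.23), and Gadd45gip1 was called without differentiated 15-week replicate 3 or stem 15-week replicate 1 or 2 but without none of the other 9 (up to 0.29), and neither was called when only the 4 groups of the contrast were fitted (0.18 for each).

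The 6 samples were most alike within an age. The mean absolute difference between 2 samples over all regions was 0.0547 to 0.0815 within an age and 0.112 to 0.135 between ages. Between the Co and GFp identifier styles at 15 weeks limma called no region, with 82 at an unadjusted p under 0.05, and between male and female samples none, with 53. With only the 2 GFp samples at 15 weeks, against the 2 samples at 3 weeks, 196 regions fell and 72 rose. With only the 2 Co samples at 15 weeks 192 fell and 73 rose. Both comparisons used the same 3-week samples, so they are not independent. Over the 215 regions that fell, the 15-week replicate 3 was the lowest, with a mean of 0.428 beside 0.460, 0.466 and 0.461, and over the 80 that rose it was the highest, at 0.643. The counts depended more on the 3-week samples, of which there are 2: without replicate 1, 127 regions fell and 44 rose, and without replicate 2, 149 fell and 60 rose.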

How the data were processed

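Whole-genome bisulfite libraries were made with the xGen Methyl-Seq and EZ DNA Methylation-Direct kits, per the labels' protocols, and aligned with BSMAP 2.90 to mm10, per the submitters' processing notes. The deposited table gives a methylation fraction for every region in every sample, per its header, beside the authors' own p-value and CpG number (10 to 49) of each region, which were not used to test anything here. The region caller, coverage filters, depth and cell sorting were not given in the sources used here. Coordinates are printed as deposited.

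Fractions of the 20 samples, in 8 groups, went into 1 limma model (version 3.58.1, R 4.3.3), with Benjamini-Hochberg adjustment over 1195 regions and a threshold of 0.05; the script was tested on simulated data. Sample means were compared by exact permutation (scipy 1.17.1). Interactions compared changes with age. Named genes were the 12 largest non-overlapping falls and 12 rises with a gene, the 6 genes with most regions, up to 4 regions per list (22 lists), opposite changes in GF and SPF cells, calls between cell types and the largest shared falls. Members and lists were chosen with earlier results of these data known. Of 666 gene symbols 657 matched RefSeq. Alternatives were the logit scale (fractions held between 0.01 and 0.99), groups fitted, centring, CpG number, autosomes, variance model, weights, sex, blocks, identifier style, left-out samples and, added after the data were seen, an adjusted p under 0.01.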

Additional observations from a re-analysis of the deposited data

Results flagged for a closer look

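In 4 of the 89 named regions, 1 of the 4 GF differentiated samples at 15 weeks stood far from the others. Chance gives such a gap in about 1 in 20 groups. Replicate 1 had 0.210 at chr15:85681402-85682236, where the others had 0.30 to 0.312, and 0.340 at Muc13, where the others had 0.509 to 0.541. Replicate 3 had 0.746 at chr6:31169418-31169759, with the others at 0.442 to 0.486, and replicate 4 had 0.872 at Tiam2, with the others at 0.756 to 0.776.

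The change with age differed between GF and SPF differentiated cells in 567 regions that were higher and 1 that was lower, by the limma interaction at an adjusted p under 0.05, and between GF differentiated and stem cells in 2 that were lower. The choice of regions by SPF below GF cells at 15 weeks enters the first of these differences. GF change minus SPF change was -0.354 at Tmsb10, and the differentiated minus stem change was -0.491 at Tmsb10 and -0.474 at Gadd45gip1. Among named regions that were called lower in GF cells the GF minus SPF change was 0.191 at Cdca7, 0.193 at Tmem252, 0.204 at Sash1, 0.219 at chr15:85678491-85678827, 0.228 and 0.369 at 2 Frmd4b regions, 0.249 at Ceacam10, 0.28 at Elovl5, 0.281 at Patj and at Pla2g5, 0.282 at Kcne3, 0.287 at Muc13, 0.307 at Muc1, 0.332 at Igf2bp2, 0.377 and 0.565 at 2 chromosome 6 regions near Mir29b-1, and 0.386 at B2m. Among those called higher in GF cells it was 0.179 and 0.184 at 2 Tiam1 regions, 0.213 at Pmepa1, 0.221 at Esrrg, 0.227 at Slc39a11, 0.231 at Eepd1, 0.237 at Nqo1, 0.262 at Met, 0.282 at Ptpn13, 0.298 at Nfatc2, 0.32 at Galnt10, 0.325 at Tiam2, 0.33 at Lpar1, 0.331 at Tead1, 0.344 at Atf7ip, 0.355 at Vmp1, 0.37 at Prdm1, 0.403 at Fat1 and 0.457 at the third chromosome 6 region. Among those not called in GF cells it was 0.204 and 0.528 at 2 Irf1 regions, 0.225 at Pecam1, 0.263 at the Mir147 region, 0.285 at Axin2, 0.583 at H2-Aa and 0.714 at Ciita. Most of these GF minus SPF differences were not called when samples were centred on their median. Those still called by limma were Tmsb10 (adjusted p = 0.0047), chr6:31127203-31128017 (0.0017), the first Irf1 region (0.0053), H2-Aa (0.0094) and Ciita (1.1e-05).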

How the results depend on the processing

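Where an alternative moved a result, the cause was not tested, except that stricter limits leave fewer regions by construction. Counts are given as lower and higher. For the change with age in GF differentiated cells (215 and 80), centring samples on their median gave 114 and 158, keeping the 181 regions with at least 15 CpGs gave 42 and 13, and an adjusted p under 0.01 gave 134 and 49; leaving out 1 library gave 127 to 210 and 44 to 84. The mean over regions was -0.0437 to -0.0381 with 1 library left out, and became 0.0172 when samples were centred. GF change minus SPF change (1 and 567) became 10 and 23 when centred, 102 higher with at least 15 CpGs and 0 and 337 at an adjusted p under 0.01. Its lower count was 0 on the logit scale, 3 with only the compared groups or with sample weights, 2 with the robust variance or only the GFp style, 4 with only the Co style, and 1 to 2 with 1 library left out (386 to 562 higher). Differentiated minus stem change (2 and 0) became 0 lower on the logit scale, with only the compared groups, centred, with sex as a covariate or at an adjusted p under 0.01. It was 1 lower with at least 15 CpGs, at neither Tmsb10 nor Gadd45gip1, whose regions hold 10 CpGs each. It was also 1 lower with sample weights or with only the Co style (1 higher). With shared identifiers as a random block it was 4 lower, and with 1 library left out 0 to 4 lower. Identifier styles gave 0 to 2 calls and the sexes 0 with 1 library left out.

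Centring turned the sign of the GF minus SPF change at Sash1 (-0.0105), Cdca7 (-0.0238), Tmem252 (-0.0218), the second Irf1 region (-0.0103), both Tiam1 regions (-0.0309 and -0.0355) and Pmepa1 (-0.00206). Of uncalled changes in GF differentiated cells, Pecam1 became 0.0126 when centred and ran from -0.148 to 0.0569 with 1 library left out. Jag1 became 0.0373 when centred, 0.0194 with sample weights, 0.0404 with the replicate block, 0.0765 with only the Co style and -0.0623 to 0.0364 with 1 library left out, and the Mir147 region ran from -0.0183 to 0.0511 with 1 library left out. No region called in GF differentiated cells and named here changed sign, and 47 of the 80 were called without any 1 library.

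The replicate numbers do not pair samples: same-numbered samples at 15 and 3 weeks deviated with r = -0.0989 and -0.158 over regions, and the groups share only 2 numbers. With the replicate block 213 regions fell and 73 rose, the GF minus SPF change was lower in 4 and higher in 545, and the differentiated minus stem change was lower in 3.

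Depth is unknown, and 2 samples at 3 weeks set the precision. The identifier style of the 15-week samples cannot be told apart from whatever else the styles stand for. The sex comparison could not be fitted with sex as a covariate, nor the style comparison within 1 style.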
